A study of Homo sapiens with 3 samples.

Results

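The transcriptome of PC3 cells that carried the shCON vector was described gene by gene as levels, from the deposited table of TPM values, a unit in which read counts are corrected for gene length and scaled to the same total in every library. A gene was counted as expressed when it had a symbol and a level of at least 1 TPM in the shCON library, and 13543 of the 59412 genes with a symbol (22.8%) met this rule. PC3 is a human prostate cancer cell line that grows without androgen and is used as a model of advanced disease. The study sequenced 3 libraries of these cells, 1 with shCON, 1 with shUSP16#1 and 1 with shUSP16#2, the latter 2 being hairpins against the ubiquitin-specific protease USP16. The shCON cells were a stable vector control that had been selected with puromycin, so the levels are those of a selected population in culture. USP16 itself was 19.9 TPM in shCON, 3.50 TPM in shUSP16#1 and 1.08 TPM in shUSP16#2. Each condition had 1 library, so no level has an error from replicates, and the values of the other libraries are given only as levels in related cells. TPM keeps no record of depth, and a gene listed at 0 is one whose deposited level was 0.

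Prostate epithelium holds luminal cells, which respond to androgen and secrete kallikreins, basal cells, which rest on the basement membrane, and rare neuroendocrine cells. Carcinoma cells can keep the keratins and junctions of epithelium while they express some mesenchymal genes, a mixed state that the markers KRT8, KRT18 and VIM bring together. KRT8 and KRT18, the paired keratins of simple epithelium, were 748 and 947 TPM in shCON. VIM, the intermediate filament protein of mesenchymal cells, was 96.4 TPM, and CXCL8, a chemokine that attracts neutrophils, was 616 TPM. All 4 markers of the label were therefore expressed, and the KRT8 level was 7.76 times that of VIM.

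Of 19904 protein-coding genes, 11586 (58.2%) had at least 1 TPM and 4941 (24.8%) were listed at 0. The median level of the expressed protein-coding genes was 15.4 TPM, and their quartiles were 5.69 and 43.6 TPM. A level of 100 TPM or more was reached by 1389 genes (6.98%). At the edge of the rule, 214 genes with a symbol lay from 1 to under 1.1 TPM and 238 lay from 0.9 to under 1 TPM. Of the 13543 expressed genes, 12120 (89.5%) also had at least 1 TPM in both hairpin libraries, and among the 7450 at 10 TPM or more this held for 7409. Spearman's correlation of the levels across the 13543 genes was 0.948 with shUSP16#1 and 0.931 with shUSP16#2. Those are correlations across genes in libraries of 1 cell line from the same study, and they are given as a description.

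**Figure D1:**
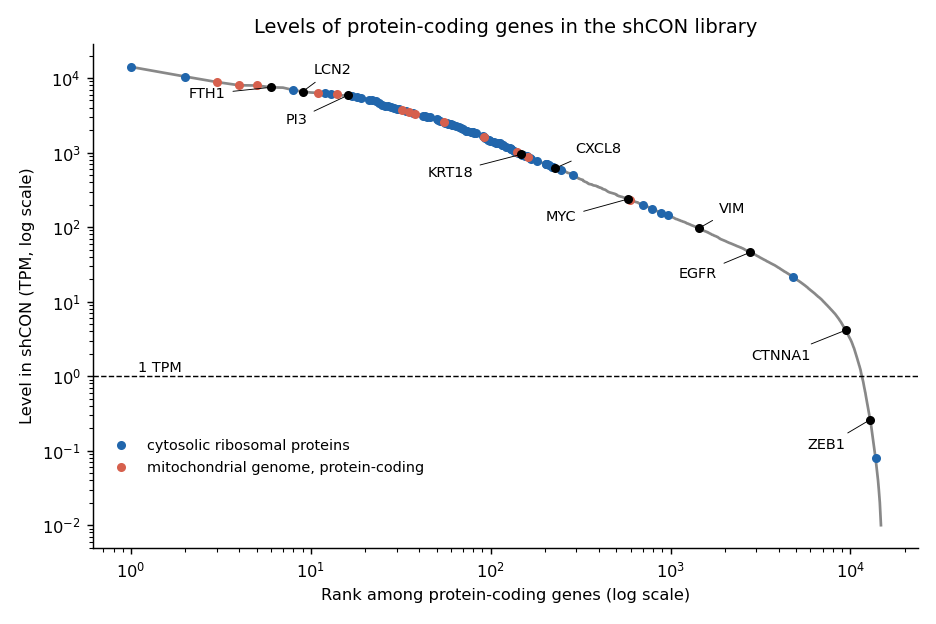
Level of each protein-coding gene in shCON (TPM, log scale) against its rank (log scale), with ribosomal protein genes in blue, genes of the mitochondrial genome in red and selected genes named; the dashed line marks 1 TPM. Ribosomal and mitochondrial genes fill most of the top of the curve, KRT18 (947 TPM) and CXCL8 (616 TPM) lie well above EGFR (46.0 TPM), and CTNNA1 (4.13 TPM) lies close to the line.

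Much of the RNA came from few genes. The 141 protein-coding genes at 1000 TPM or more held 43.1% of the protein-coding TPM, and the 10 highest genes with a symbol held 8.42% of all TPM. Ribosomal protein genes of the cytosolic ribosome held 21.1% of all TPM, with 85 of 89 expressed, and the 13 protein-coding genes of the mitochondrial genome held 5.40%. The highest level was that of RPS29 at 14107 TPM, followed by RPS27 at 10472 TPM, both proteins of the small ribosomal subunit. MT-ND3, MT-ATP8 and MT-CO2, subunits of the respiratory chain and the ATP synthase, followed at 8840, 7994 and 7948 TPM.

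Among the 20 highest protein-coding genes, 7 were neither ribosomal nor mitochondrial. FTH1, the ferritin heavy chain that stores iron, was 7501 TPM, and TMSB10, a thymosin that binds actin monomers, was 7434 TPM. LCN2, a secreted lipocalin that binds the siderophores of bacteria, was 6568 TPM. S100A6, a calcium-binding protein, was 6396 TPM. MT2A, a metallothionein that binds zinc and copper, was 5839 TPM, and PI3, the secreted elastase inhibitor elafin, was 5838 TPM. PPIA, the prolyl isomerase cyclophilin A, was 5358 TPM. LCN2 and PI3 are products of epithelia with a role in innate defence, and they stood at the level of ribosomal proteins. Across shCON, shUSP16#1 and shUSP16#2, LCN2 was 6568, 4176 and 4541 TPM and PI3 was 5838, 6017 and 6902 TPM, so both were near the top in all 3 libraries.

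Genes that do not code for protein were led by FP236383.4 at 5426 TPM. FP236383.3 was 3208 TPM, the summed entries named 5_8S_rRNA, for a ribosomal RNA, were 3258 TPM and RNA5-8SN3 was 3179 TPM. RNA5-8SN3 was 0.17 TPM in shUSP16#1 and 15.2 TPM in shUSP16#2. MT-RNR2, the large ribosomal RNA of mitochondria, was 3029 TPM, and RN7SL2 and RN7SL1, the RNAs of the signal recognition particle, were 2652 and 1888 TPM. The remaining entries among the 10 highest were AC243919.1 at 2828 TPM and the ribosomal protein pseudogenes RPL39P3 at 1907 TPM and RPS28P7 at 1792 TPM. Reads of such copies can be shared with near-identical genes, so these levels are uncertain.

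The genes of the epithelial list were expressed almost in full. Of 47 genes of junctions, desmosomes and the epithelial surface, 46 (97.9%) had at least 1 TPM, against 58.2% of all protein-coding genes, and DSG3, a desmoglein of stratified epithelium, was listed at 0. CDH1, the E-cadherin of adherens junctions, was 65.8 TPM, CLDN7 and CLDN4, claudins of tight junctions, were 128 and 118 TPM, and OCLN, the tight junction protein occludin, was 7.64 TPM. Of the 24 claudins as a whole family, 8 (33.3%) had at least 1 TPM and 7 were listed at 0. The claudin family was chosen after its values were seen. EPCAM, an adhesion molecule of epithelial cells, was 274 TPM, and SPINT2 and ST14, an inhibitor and the membrane protease matriptase, were 378 and 173 TPM. ESRP1 and GRHL2, a splicing regulator and a transcription factor of epithelial cells, were 45.5 and 12.6 TPM. Desmosomal PKP3 was 123 TPM and JUP, or plakoglobin, was 88.9 TPM.

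The catenins of the adherens junction were far apart in level. CTNNB1, or beta-catenin, which joins cadherin to alpha-catenin and serves Wnt signalling, was 143, 63.0 and 70.0 TPM in shCON, shUSP16#1 and shUSP16#2. CTNND1, or p120 catenin, was 61.1 TPM in shCON. CTNNA1, the alpha-catenin of epithelial cells that links cadherin complexes to actin, was 4.13, 3.42 and 2.59 TPM in the same order. Beta-catenin RNA was thus 34.7 times the CTNNA1 level in shCON, 18.4 times in shUSP16#1 and 27.0 times in shUSP16#2. CTNNA2, the neural alpha-catenin, was 6.38 TPM and CTNNA3 was 3.30 TPM, and VCL, the related protein vinculin, was 98.3 TPM. The gene before CTNNA1 on the chromosome, HSPA9, was 185 TPM and the genes after it, LRRTM2 and SIL1, were 0 and 9.88 TPM. CTNNA2, CTNNA3, VCL and these neighbours were chosen after their values were seen.

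Of 8 keratins in the list of simple epithelium 6 were expressed, with a summed level of 6580 TPM, and of 11 keratins of stratified or basal epithelium 6 were expressed, with a summed level of 218 TPM. KRT7 was 1717 TPM, KRT18 was 947 TPM, KRT8 was 748 TPM and KRT19 was 507 TPM, and in all 3 libraries the sum of these 4 genes lay between 3892 and 4831 TPM. KRT81, a hair keratin that was counted in the former list, was 2614 TPM in shCON, 5144 TPM in shUSP16#1 and 5402 TPM in shUSP16#2. Its close paralog KRT86 was 11.2 TPM, and reads may be split between such near-identical genes. KRT6B, a keratin of stratified epithelium, was 141 TPM, KRT10 was 43.1 TPM, KRT6A was 18.0 TPM and KRT75, chosen after its value was seen, was 150 TPM, whereas KRT5, the basal keratin, was 0.05 TPM and its partner KRT14 was listed at 0. Keratin-associated proteins of hair were mostly silent, with 2 of 94 (2.13%) at 1 TPM or more.

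Mesenchymal genes were expressed in part. Of 22 structural and matrix genes, 13 (59.1%) had at least 1 TPM, a share close to the 58.2% of all protein-coding genes. MSN, or moesin, which links actin to the membrane, was 253 TPM, FN1, or fibronectin, was 230 TPM, and COL6A1 and COL6A2, chains of collagen VI, were 221 and 218 TPM. CDH2, or N-cadherin, was 12.9 TPM, so E-cadherin RNA was 5.09 times as high. The fibrillar collagens and stromal proteins were low or silent: COL1A1 was 4.19 TPM, COL1A2 was 0.08 TPM, SPARC was 0.04 TPM, and COL3A1, DCN and POSTN were listed at 0. Of 10 transcription factors linked to the mesenchymal state, 5 were expressed, to be read against the 58.2% of all protein-coding genes. This count depended on the rule, since it was 2 at a minimum of 5 TPM. ETS1 was 81.0 TPM and SNAI2, or Slug, was 21.8 TPM, while TWIST1 was 2.86 TPM and SNAI1 was 2.46 TPM. ZEB1 and ZEB2, repressors of CDH1, were 0.26 and 0.41 TPM. The VIM level was 96.4, 59.8 and 40.5 TPM across shCON, shUSP16#1 and shUSP16#2, highest in shCON.

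**Figure D2:**
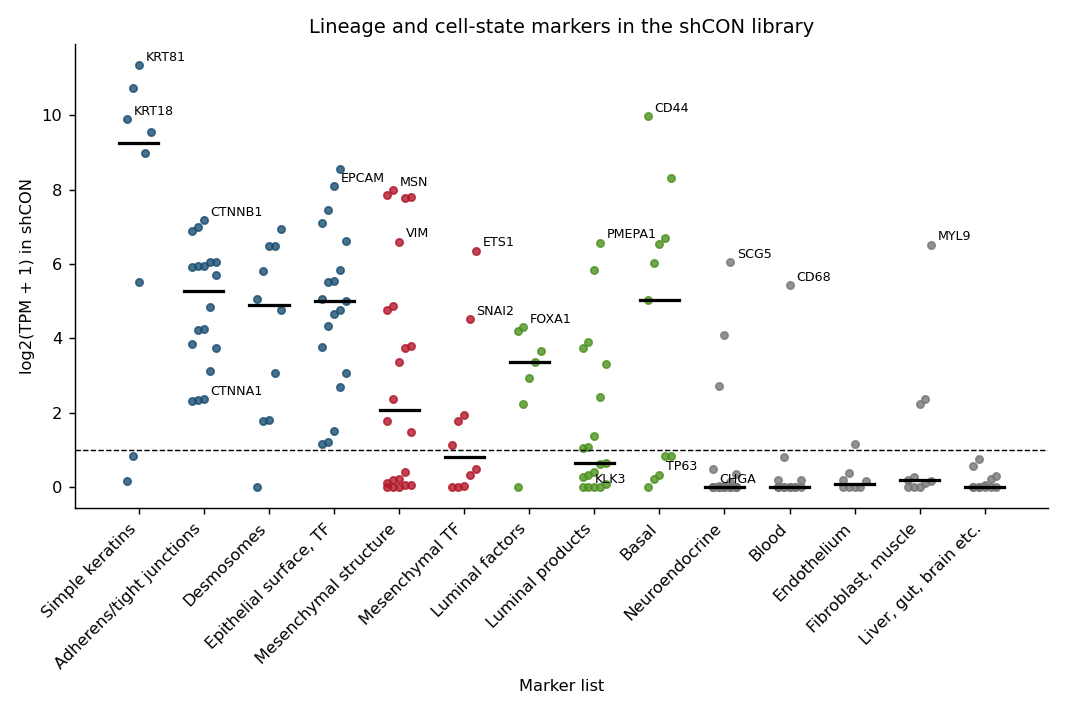
Level of each gene in shCON as log2(TPM + 1), by marker list, with 1 point per gene, a bar at each list's median and a dashed line at 1 TPM. Simple keratins have the highest median, and genes of the 3 other epithelial lists lie almost all above the line. The mesenchymal and luminal product lists are split between high and silent genes. Neuroendocrine, blood, endothelial and other tissue markers lie mostly at or near 0, with exceptions such as SCG5 (65.4 TPM), CD68 (42.2 TPM) and MYL9 (90.9 TPM).

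Most luminal prostate transcription factors were expressed while the best known secreted products of luminal cells were not. Of 7 receptor and lineage factors, 6 had at least 1 TPM (85.7%, against 58.2% of all protein-coding genes) and 1 was listed at 0. FOXA1, the pioneer factor of luminal cells, was 18.7 TPM, HOXB13, a homeobox factor of prostate, was 17.2 TPM, SPDEF was 11.6 TPM and GATA2 was 9.36 TPM. KLK3, which encodes prostate-specific antigen, and KLK2 and KLK4 were listed at 0, and MSMB, ACPP and FOLH1, encoding other prostate products, were 0.26, 0.21 and 0.56 TPM. PMEPA1, a target of androgen and of TGF-beta, was 94.2 TPM, STEAP1, a metalloreductase of the prostate cell surface, was 55.8 TPM, and FKBP5, a target of steroid receptors, was 14.0 TPM. TMPRSS2, a membrane protease under androgen control, was 1.13 TPM. In all, 9 of 19 secreted or surface products of luminal cells had at least 1 TPM (47.4%, against 58.2% of all protein-coding genes).

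HOX genes, which set position along the body axis and were chosen here after their values were seen, were expressed in 22 of 39 cases (56.4%, close to the 58.2% of all protein-coding genes). HOXA9 was highest at 53.3 TPM, followed by HOXB9 at 18.2 TPM, HOXA10 at 17.9 TPM, HOXB13 at 17.2 TPM, HOXA11 at 11.8 TPM and HOXC10 at 11.7 TPM. More anterior genes were also present, among them HOXB6 at 8.79 TPM and HOXB3 at 6.49 TPM. No gene of the HOXD cluster reached 1 TPM, whether anterior or posterior. HOXD1, HOXD4, HOXD9, HOXD10, HOXD11 and HOXD12 were listed at 0, HOXD13 was 0.02 TPM, HOXD3 was 0.28 TPM and HOXD8 was 0.55 TPM.

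Adhesion genes of basal cells were expressed with 1 exception, and regulators of the basal state were not. CD44, the hyaluronan receptor, was 1005 TPM. LAMB3 and LAMA3, chains of the basement membrane laminin of epithelia, were 319 and 92.4 TPM, and ITGB4 and ITGA6, the chains of its integrin receptor, were 102 and 31.8 TPM. TP63, the regulator of basal identity, was 0.26 TPM, NGFR was 0.16 TPM, and the exception among adhesion genes was COL17A1, a collagen of hemidesmosomes, at 0.77 TPM. Of the 11 genes of the list, 6 were expressed (54.5%, against 58.2% of all protein-coding genes).

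Neuroendocrine genes were mostly silent. Of 24, 3 (12.5%, against 58.2% of all protein-coding genes) had at least 1 TPM and 16 were listed at 0, among them CHGA, CHGB, INSM1 and NCAM1. The 3 were SCG5, a chaperone of prohormone convertase, at 65.4 TPM, ENO2, the neuronal enolase, at 16.1 TPM, and DLL3, a Notch ligand, at 5.63 TPM. Markers of other cell types were also mostly under 1 TPM, with 5 of 43 expressed (11.6%). Among fibroblast and muscle markers 3 of 10 were expressed (30.0%), with MYL9 highest at 90.9 TPM. Among blood cell markers PTPRC was 0.14 TPM, and CD3D, LYZ and HBB were listed at 0, with CD68, a lysosomal glycoprotein, at 42.2 TPM. Endothelial PECAM1 was 0.14 TPM and VWF was 0.01 TPM. In the list for liver, pancreas, gut and brain, 0 of 12 reached 1 TPM.

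Chemokines of the CXC group that attract neutrophils were the highest chemokines. These proteins bind CXCR1 and CXCR2, and their genes lie together on chromosome 4. CXCL1 was 1521 TPM, CXCL8 was 616 TPM, CXCL3 was 370 TPM, CXCL5 was 360 TPM, CXCL6 was 346 TPM and CXCL2 was 113 TPM. The 6 genes together held 0.333% of all TPM. In gene order they stood beside silent relatives, since PF4V1 and PF4, platelet factors in the same run, were listed at 0, and PPBP was 11.3 TPM. ALB and AFM, liver genes on the other side of CXCL8, were also listed at 0, and these neighbours were chosen after their values were seen. Of 35 chemokines, 10 were expressed (28.6%, against 58.2% of all protein-coding genes) and 21 were listed at 0. Those at 0 included CXCL9 and CXCL10, which interferon induces and which attract T cells, and CXCL12 and CCL2. CCL20, a ligand of CCR6, was 56.2 TPM and CXCL16 was 36.2 TPM.

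The promoter windows of these chemokines are shown because 6 of the 9 expressed chemokines with a window share a run of letters. Windows ran from 250 bases before to 50 bases after the start in RefSeq, build GRCh38.p14, and they were printed with GGAATTTCC, or its reverse complement GGAAATTCC, in capitals. This run of letters is of the kind bound by NF-kappa-B. The CXCL1 window was chr4:73869143-73869442 on the plus strand, that of CXCL5 was chr4:73998628-73998927 on the minus strand, that of CXCL8 was chr4:73740319-73740618 on the plus strand and that of CXCL10 was chr4:76023448-76023747 on the minus strand.
CXCL1: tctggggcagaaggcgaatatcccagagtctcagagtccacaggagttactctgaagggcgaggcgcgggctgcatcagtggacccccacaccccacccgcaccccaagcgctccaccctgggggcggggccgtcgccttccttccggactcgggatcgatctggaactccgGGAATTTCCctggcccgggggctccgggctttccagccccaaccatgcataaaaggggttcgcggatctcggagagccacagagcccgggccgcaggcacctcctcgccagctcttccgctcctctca
CXCL5: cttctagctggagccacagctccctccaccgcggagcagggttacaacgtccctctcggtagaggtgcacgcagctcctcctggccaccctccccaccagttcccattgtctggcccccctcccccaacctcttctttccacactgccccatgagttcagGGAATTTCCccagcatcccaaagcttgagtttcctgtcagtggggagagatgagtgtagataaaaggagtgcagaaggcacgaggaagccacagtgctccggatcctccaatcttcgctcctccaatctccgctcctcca
CXCL8: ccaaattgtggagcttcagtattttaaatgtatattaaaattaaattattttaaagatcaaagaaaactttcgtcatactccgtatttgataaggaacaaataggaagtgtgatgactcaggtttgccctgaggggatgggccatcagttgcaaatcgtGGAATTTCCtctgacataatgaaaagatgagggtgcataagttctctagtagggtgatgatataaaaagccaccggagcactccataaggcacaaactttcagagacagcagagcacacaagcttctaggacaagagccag
CXCL10: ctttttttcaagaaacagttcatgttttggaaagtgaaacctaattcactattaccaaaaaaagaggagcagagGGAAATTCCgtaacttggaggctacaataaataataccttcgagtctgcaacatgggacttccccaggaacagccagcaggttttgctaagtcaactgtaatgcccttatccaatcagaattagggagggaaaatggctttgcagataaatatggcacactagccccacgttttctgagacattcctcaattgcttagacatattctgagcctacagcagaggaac

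The letters began 78 bases before the start in CXCL1 and CXCL3, 77 in CXCL2, 90 in CXCL5, 89 in CXCL6 and 91 in CXCL8, on the strand of the gene in each. The windows of CXCL1, CXCL2 and CXCL3 were nearly alike around the match, as were those of CXCL5 and CXCL6. The 6 matches are therefore not 6 separate cases. The run was searched on both strands of 15403 protein-coding windows and was found in 64 (0.416%). CXCL10 carried it on the opposite strand 176 bases before the start and CXCL11 75 bases before, yet CXCL10 was listed at 0 and CXCL11 was 0.04 TPM. CXCL10 was 1 of 15 chemokines with a window that were listed at 0. CXCL11 was 1 of 2 that were over 0 and under 1 TPM. Of the 64 genes with the letters, 43 (67.2%) were expressed, against 61.5% of all genes with a window. The search was chosen after the levels were seen, and a match is a description of letters only.

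Among interleukins and colony-stimulating factors, 20 of 29 genes were expressed (69.0%, against 58.2% of all protein-coding genes). MIF, a cytokine that many cells make, was 3270 TPM, and IL1B, the inflammatory interleukin 1 beta, was 573 TPM. IL6 was 198 TPM and LIF, a cytokine of the same family, was 103 TPM. IL18 was 93.6 TPM, CSF3, the growth factor of granulocytes, was 67.8 TPM and CSF2 was 31.0 TPM. TNF was 0.11 TPM, IL33 was 0.05 TPM and IL10 was listed at 0. Beside these, the acute phase protein genes SAA1 and SAA2 were 1243 and 123 TPM, and S100A9 and S100A8, the chains of calprotectin, were 2227 and 108 TPM; these 4 genes were chosen after their values were seen.

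For several of these ligands the RNA of the receptor was at or near 0 in the same cells. CXCR1 was 0.02 TPM and CXCR2 was listed at 0, as were CXCR4 and CCR6, and 2 of 22 chemokine receptors were expressed (9.09%, against 58.2% of all protein-coding genes). One was CCR3, a receptor for eotaxins, at 37.0, 57.2 and 35.8 TPM in shCON, shUSP16#1 and shUSP16#2, and the other was the atypical receptor ACKR3 at 1.36 TPM. CSF3R and CSF2RA, receptor chains for the colony-stimulating factors, were listed at 0. LIFR was 0.39 TPM, whereas IL6R and IL6ST, the receptor chains for interleukin 6, were 7.70 and 8.40 TPM and OSMR was 25.9 TPM. IL1R1, the signalling receptor for interleukin 1, was 1.42 TPM and the decoy receptor IL1R2, chosen after its value was seen, was 13.5 TPM. Of 31 cytokine receptors, 21 were expressed (67.7%), led by IFNGR2 at 29.9 TPM, a chain of the interferon gamma receptor, and IL7R at 26.3 TPM.

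**Figure D3:**
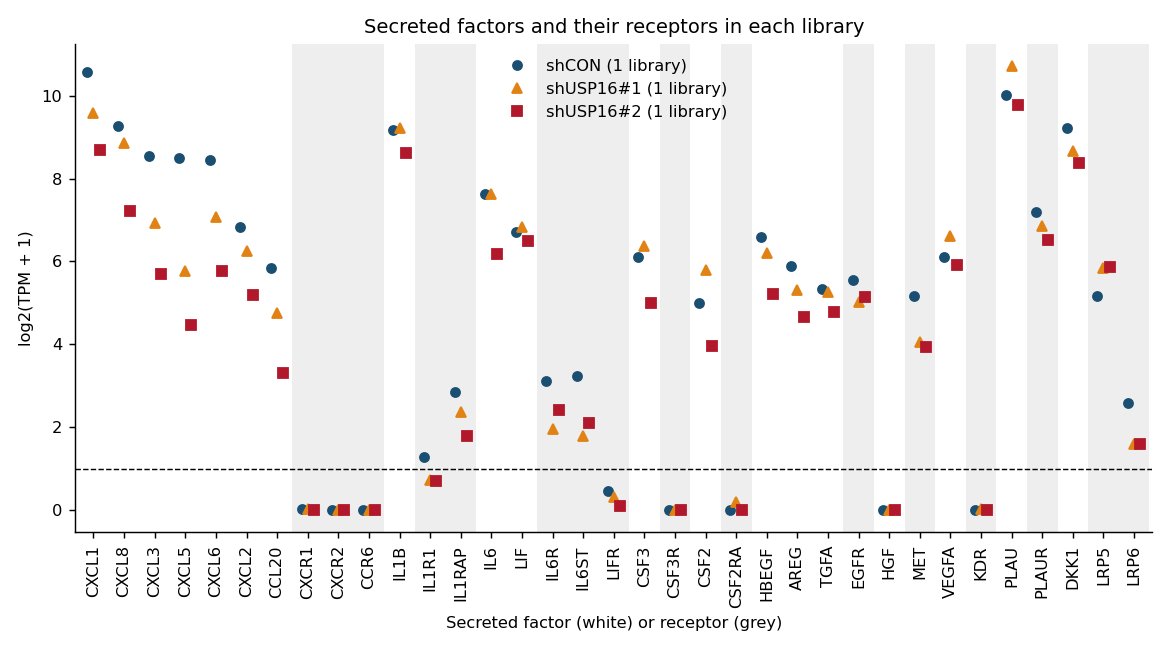
Level of secreted factors and receptors as log2(TPM + 1) in each of the 3 libraries, with receptors on grey and a dashed line at 1 TPM. In shCON the chemokines CXCL1 to CXCL8 are far above the line while CXCR1, CXCR2 and CCR6 are at or near 0, and the 7 chemokines shown are highest in shCON, as for CXCL8 with 616, 462 and 149 TPM in the order shCON, shUSP16#1 and shUSP16#2.

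The chemokine levels were not alike in the 3 libraries. CXCL1 was 1521 TPM in shCON, 760 TPM in shUSP16#1 and 414 TPM in shUSP16#2. CXCL5 was 360, 53.6 and 21.2 TPM in the same order. The sum of the 6 CXC genes was 3325, 1604 and 724 TPM, highest in shCON. IL1B was 573, 599 and 391 TPM, which is a narrower range with a different order. With 1 library per condition none of these differences has a test.

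Receptor tyrosine kinases pass growth factor signals into the cell, and 27 of 58 were expressed (46.6%, against 58.2% of all protein-coding genes). EPHA2, an ephrin receptor, was highest at 160 TPM, followed by DDR1, a collagen receptor, at 108 TPM and AXL, a receptor of GAS6, at 71.5 TPM. EGFR was 46.0 TPM, ERBB3 was 18.6 TPM, ERBB2 was 12.4 TPM and ERBB4 was 0.02 TPM. MET, the receptor of hepatocyte growth factor, was 35.1 TPM. FGFR4 was 24.5 TPM, and of the other FGF receptors FGFR1 was 1.46 TPM, FGFR3 was 0.25 TPM and FGFR2 was 0.04 TPM. IGF1R and INSR, the receptors of insulin-like growth factor and insulin, were 3.71 and 3.09 TPM. KIT, PDGFRA, RET and FLT1 were listed at 0, and KDR, a receptor of VEGF, was 0.01 TPM.

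Ligands for EGFR were made by the same cells. HBEGF was 95.6 TPM, EPGN was 68.1 TPM, AREG was 57.9 TPM, TGFA was 39.1 TPM and BTC was 4.03 TPM, while EGF itself was 0.52 TPM and the neuregulins NRG1, NRG2 and NRG3 were listed at 0. GAS6, the ligand of AXL, was 46.7 TPM, a gene chosen after its value was seen. HGF, the ligand of MET, and IGF1 were listed at 0. VEGFA, VEGFB and VEGFC, which act on vessels, were 68.4, 35.2 and 33.8 TPM. STC2, the secreted glycoprotein stanniocalcin 2, was 713 TPM and ADM, the vasodilator adrenomedullin, was 106 TPM. PTHLH, which encodes the parathyroid hormone-related protein that acts on bone, was 26.1 TPM.

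In the TGF-beta family, 17 of 25 ligands and antagonists were expressed (68.0%, against 58.2% of all protein-coding genes). INHBA and INHBB, the chains of activins, were 89.0 and 58.1 TPM, and their antagonists FST and FSTL3 were 62.4 and 62.9 TPM. TGFB2 was 54.1 TPM and TGFB1 was 34.8 TPM, and the receptors TGFBR2 and TGFBR1 were 30.6 and 8.18 TPM. BMP2 and BMP7 were listed at 0, and BMP4 was 6.32 TPM. In the Wnt family, 12 of 34 ligands and antagonists were expressed (35.3%), and DKK1, an inhibitor that binds LRP6 and LRP5, was by far the highest at 596 TPM. Its receptors LRP5 and LRP6 were 35.2 and 5.02 TPM. The Wnt ligands were low, with WNT9A at 16.4 TPM and WNT10B at 7.30 TPM, and the other inhibitors DKK2, DKK4, SFRP1 and WIF1 were listed at 0. FZD8 was the highest frizzled receptor at 46.9 TPM. JAG2, a Notch ligand, was 19.2 TPM, and NOTCH2 and NOTCH3 were 11.7 and 8.27 TPM.

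Nuclear receptors were expressed in 23 of 48 cases (47.9%, against 58.2% of all protein-coding genes). ESRRA, an orphan receptor that controls mitochondrial genes, was 86.2 TPM, NR1H2, a liver X receptor, was 70.8 TPM, NR2F6 was 70.3 TPM and PPARG, a receptor for fatty acid ligands, was 49.4 TPM. VDR, the vitamin D receptor, was 25.6 TPM, RARG was 25.3 TPM and NR3C1, the glucocorticoid receptor, was 5.11 TPM. Among the receptors of sex steroids, PGR was listed at 0, ESR1 was 0.89 TPM and ESR2 was 0.11 TPM.

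Receptors of the TNF family were led by TNFRSF12A, the receptor of TWEAK, at 403 TPM. LTBR was 93.3 TPM, TNFRSF10B, a receptor for the death ligand TRAIL, was 42.6 TPM, TNFRSF1A was 32.6 TPM and FAS was 4.17 TPM, while TNFRSF1B was listed at 0. Among G protein-coupled receptors, 23 of 39 were expressed (59.0%, close to the 58.2% of all protein-coding genes). F2RL1, a receptor that proteases activate, was 75.4 TPM, GPRC5A was 57.4 TPM, ADORA2B, an adenosine receptor, was 31.1 TPM, and LPAR2 and LPAR1, receptors of lysophosphatidic acid, were 27.1 and 26.2 TPM. ADRB1 and AGTR1 were listed at 0.

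Proteases and their inhibitors were uneven, with inhibitors on top. PI3 and SLPI, related inhibitors of neutrophil elastase, were 5838 and 1100 TPM and together held 0.694% of all TPM. SEMG1, the semen protein gene between them on chromosome 20, was listed at 0, and SEMG2 was 0.06 TPM, both chosen after their values were seen. PLAU, the urokinase that activates plasminogen, was 1028 TPM and its receptor PLAUR was 145 TPM. KLK6 and KLK5, kallikreins outside the androgen group, were 158 and 60.5 TPM. Matrix metalloproteinases were low apart from the membrane-bound MMP14 at 44.8 TPM, since MMP9 was 5.40 TPM, MMP1, MMP3 and MMP7 were 0.44, 0.52 and 0.30 TPM and MMP2 was listed at 0. TIMP1 and TIMP2, their inhibitors, were 170 and 70.1 TPM, and TIMP3 was 0.01 TPM.

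Of 50 matrix and matricellular genes, 38 were expressed (76.0%, against 58.2% of all protein-coding genes). LGALS1, or galectin 1, which binds sugars on cell surfaces, was 2211 TPM. THBS1, or thrombospondin 1, was 509 TPM, IGFBP3, a carrier of insulin-like growth factors, was 341 TPM and CCN1 was 290 TPM. The basement membrane chains LAMA5, COL4A2 and COL4A1 were 53.5, 65.0 and 20.5 TPM, and SPP1, or osteopontin, was listed at 0. Integrin chains, chosen after their values were seen, were led by ITGB1 at 500 TPM and ITGA3 at 206 TPM, with 12 of 26 at 1 TPM or more (46.2%).

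Surface antigens used as markers or antibody targets were expressed in 30 of 38 cases (78.9%, against 58.2% of all protein-coding genes). CD44 was 1005 TPM, CD63 was 777 TPM, BSG was 447 TPM and TFRC, the transferrin receptor, was 245 TPM. CD276 was 25.2 TPM and CD274, which encodes PD-L1, was 10.1 TPM. FOLH1, which encodes the prostate-specific membrane antigen, was 0.56 TPM, NECTIN4 was 1.33 TPM and CEACAM5 was listed at 0.

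Tumour suppressor genes were nearly all expressed as RNA. Of 83, 78 (94.0%) had at least 1 TPM against 58.2% of all protein-coding genes, and the 5 under it were TET2 at 0.97 TPM, AXIN2 at 0.26 TPM and CDH13, DCC and ZBTB16, all listed at 0. AXIN2 is a feedback inhibitor of Wnt signalling, CDH13 a cadherin without an intracellular tail, and DCC a netrin receptor. The neighbours of CDH13 on the chromosome, MPHOSPH6 and HSBP1, were 49.98 and 61.2 TPM, and the neighbours of DCC, MEX3C and MBD2, were 9.23 and 16.0 TPM. For ZBTB16 the gene on one side, HTR3A, was listed at 0 and that on the other, NNMT, was 121 TPM. PPA2, the gene after TET2, was 85.0 TPM, and CXXC4, the gene before it, was listed at 0.

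Levels of single suppressors covered a wide range. RB1 was 5.29 TPM, under the lower quartile of 5.69 TPM of expressed protein-coding genes. The neighbours of RB1 on its 2 sides, ITM2B and LPAR6, chosen after their values were seen, were 84.1 and 1.5 TPM. CDKN2A, which encodes p16 and p14ARF, was 129 TPM, and CDKN1A, the p21 inhibitor of cyclin-dependent kinases, was 77.3 TPM. A gene-level TPM does not separate the transcripts of CDKN2A and does not show whether a transcript is intact. GSTP1, a glutathione transferase that is often silenced in prostate cancer, was 551 TPM. In chromatin and repair genes, 19 of 20 were expressed (95.0%, against 58.2% of all protein-coding genes). SMARCB1 was 127 TPM, SMARCA4 was 101 TPM, BRCA1 was 8.36 TPM and BRCA2 was 1.93 TPM.

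Of 58 oncogenes and effectors, 46 were expressed (79.3%, against 58.2% of all protein-coding genes). HMGA1, an architectural chromatin protein, was highest at 1014 TPM. CDK4 was 309 TPM, BCL2L1, an inhibitor of apoptosis, was 281 TPM, FOSL1, a subunit of AP-1, was 277 TPM, MYC was 238 TPM and CCND1 was 163 TPM. BCL2 was 0.77 TPM. HRAS was 98.4 TPM and NRAS was 0.63 TPM. The ETS genes ETV4 and ETV5 were 86.2 and 35.8 TPM, ETV1 was 0.77 TPM and ERG was listed at 0. CCND2, MYCN, LIN28A, LIN28B and STAT3 were the other genes listed at 0.

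STAT3, the transcription factor downstream of the interleukin 6 receptor, was listed at 0 in shCON and shUSP16#1 and at 0.01 TPM in shUSP16#2. In chromosomal order on chromosome 17 it lay in a run of 12 adjacent protein-coding genes that were all listed at 0 in shCON, namely DHX58, KAT2A, AC099811.2, HSPB9, RAB5C, KCNH4, HCRT, GHDC, STAT5B, STAT5A, STAT3 and CAVIN1. The same genes were at 0 in both hairpin libraries but for the 0.01 TPM of STAT3. KAT2A is a histone acetyltransferase, RAB5C a GTPase of early endosomes, STAT5A and STAT5B relatives of STAT3, and CAVIN1 the coat protein of caveolae. CAV1 and CAV2, the caveolins of the same structure, were 215 and 45.3 TPM. On one side of the run C17orf113 was 0.26 TPM, and on the other ATP6V0A1, a subunit of the proton pump of lysosomes, was 0.33 TPM, after which NAGLU was 6.94 TPM and COASY was 43.1 TPM. Of the other STAT genes, some were present and some low, with STAT6 at 40.6 TPM, STAT2 at 11.6 TPM and STAT4 at 0.45 TPM. Among 19829 protein-coding genes in order, 23 other runs of zeros were at least as long as this one. The longest held 33 genes and ran over keratin-associated proteins, and others held olfactory receptors, defensins or cancer-testis genes. This run and the STAT genes other than STAT3 were chosen after their values were seen, and DNA was not measured.

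**Figure D4:**
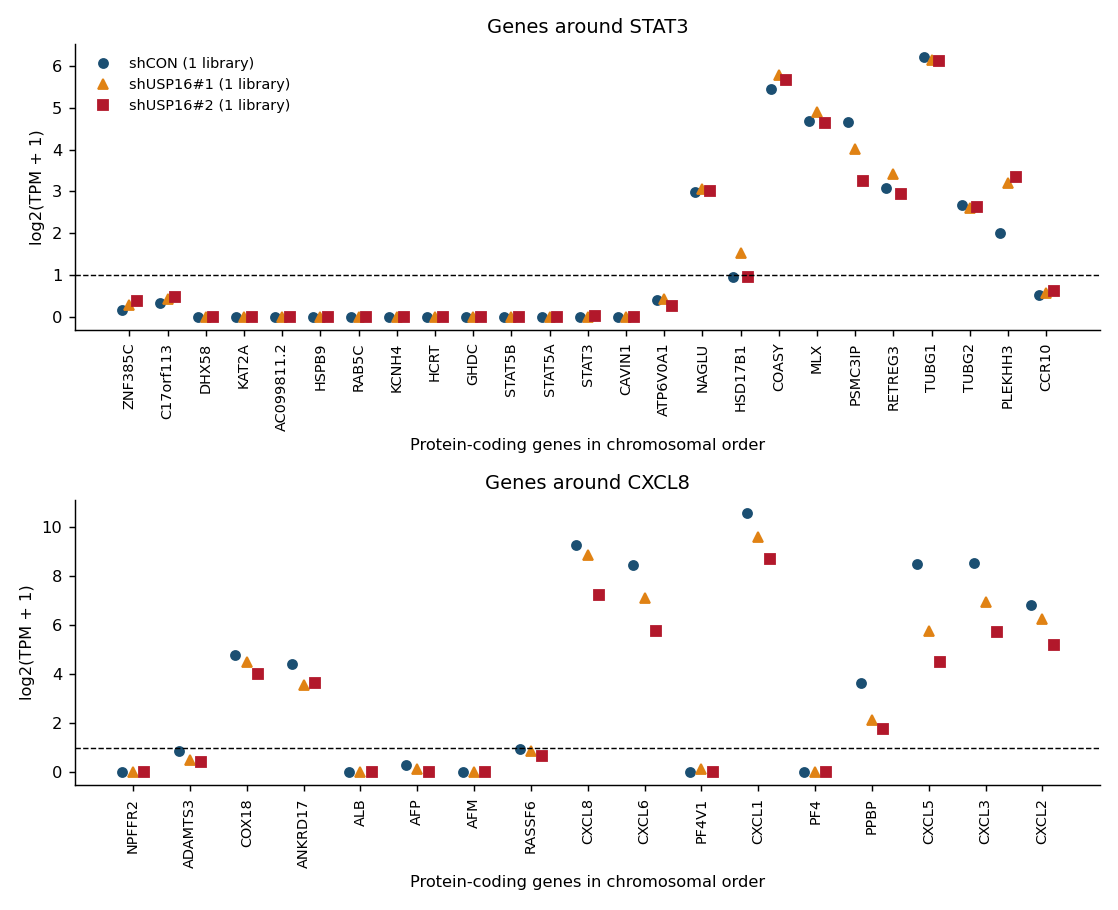
Levels as log2(TPM + 1) of protein-coding genes in chromosomal order around STAT3 (top) and CXCL8 (bottom) in the 3 libraries, with a dashed line at 1 TPM. From DHX58 to CAVIN1 the 12 genes lie at 0 in shCON while COASY (43.1 TPM) and its neighbours do not, and in the lower panel CXCL8, CXCL6, CXCL1, CXCL5, CXCL3 and CXCL2 rise above PF4V1 and PF4 at 0.

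Metabolic genes often come as related copies of which a tissue uses one, and the share held by the highest member of each group was described in shCON. In 58 groups of related genes, the highest member held a median of 80.2% of the group's summed TPM. It held 90% or more in 22 groups and under 60% in 14. The share is that of the highest member, so it cannot be low in a small group. Some groups, such as citrate synthase and lyase or the succinyl-CoA ligase subunits, do not hold alternative copies. The median therefore depends on how the groups were drawn. The highest member was the same gene in all 3 libraries in 53 of the 58 groups.

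Glucose uptake and glycolysis rested on the widely expressed forms. SLC2A1, the glucose transporter GLUT1, was 132 TPM and held 80.1% of its group. HK1, the hexokinase of most tissues, was 71.0 TPM and HK2, the inducible hexokinase, was 28.0 TPM, so HK1 held 71.3%. The phosphofructokinase subunits were mixed, with PFKL at 126 TPM, PFKP at 99.0 TPM and PFKM at 61.0 TPM. ALDOA was 1019 TPM, GAPDH was 3582 TPM, PGK1 was 546 TPM, ENO1 was 2133 TPM and PKM was 1388 TPM, and each held at least 98% of its group. PKLR, the pyruvate kinase of liver and red cells, was listed at 0, and gene-level values do not separate the M1 and M2 forms of PKM. LDHA, the lactate dehydrogenase of glycolytic cells, was 1568 TPM and LDHB was 525 TPM, a ratio of 2.99 in shCON, 4.90 in shUSP16#1 and 4.81 in shUSP16#2. The lactate exporter SLC16A3, or MCT4, was 223 TPM and SLC16A1, or MCT1, was 43.0 TPM. FBP1, an enzyme of gluconeogenesis, was 32.1 TPM. The 11 highest forms from hexokinase to lactate dehydrogenase together held 1.21% of all TPM.

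**Figure D5:**
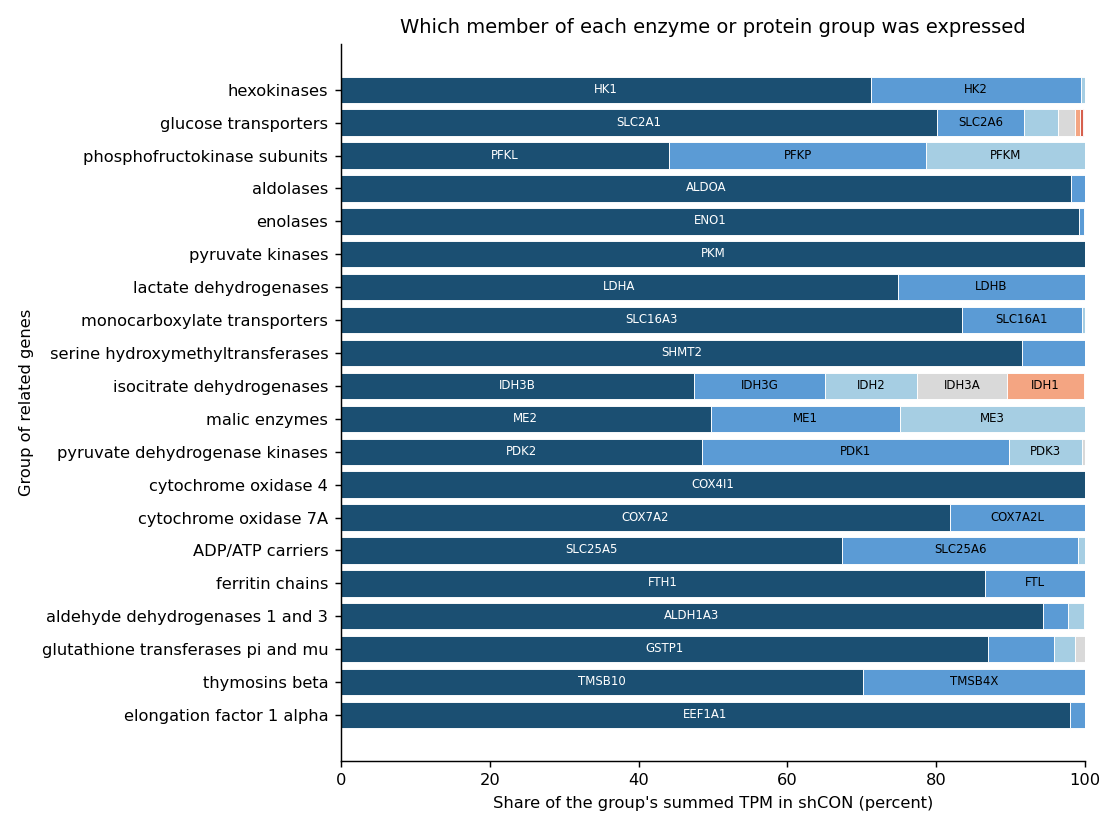
Share of each group's summed TPM (percent) held by each of its genes in shCON, for 20 of the 58 groups, ordered from the highest member at the left. Single genes fill the bars of pyruvate kinase (PKM), enolase (ENO1) and cytochrome oxidase 4 (COX4I1), whereas phosphofructokinase subunits, malic enzymes and pyruvate dehydrogenase kinases are divided, with PFKL at 44.1%, ME2 at 49.7% and PDK2 at 48.5%.

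Several groups of mitochondrial and amino acid enzymes showed a choice between copies. COX4I1, COX6A1 and COX8A, the forms of cytochrome oxidase subunits found in most tissues, were 1256, 1762 and 1528 TPM, and COX4I2, COX6A2 and COX8C were listed at 0. SLC25A5 was the main ADP/ATP carrier at 794 TPM, followed by SLC25A6 at 373 TPM, and the muscle form SLC25A4 was 11.1 TPM. SHMT2, the mitochondrial serine hydroxymethyltransferase, was 267 TPM and the cytosolic SHMT1 was 24.9 TPM. GOT2 was 129 TPM and GOT1 was 40.1 TPM, and GPT2 was 16.8 TPM against 0.22 TPM for GPT. MAT2A was 133 TPM, and MAT1A, the liver form, was listed at 0. The isocitrate dehydrogenase genes showed no such choice. IDH3B, IDH3G and IDH3A, which encode subunits of the same enzyme, were 163, 60.7 and 41.3 TPM, and IDH2 and IDH1 were 42.7 and 35.9 TPM. SCD, the main stearoyl-CoA desaturase, was 57.4 TPM, ACSS2 was 47.2 TPM, and CPT1A, the gate of fatty acid entry into mitochondria, was 25.01 TPM.

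Several groups of redox and iron genes were also one-sided, and the aldo-keto reductases were not. FTH1 was 7501, 15494 and 10732 TPM in shCON, shUSP16#1 and shUSP16#2, and FTL, the light chain, was 1157, 1178 and 1141 TPM, so FTH1 held 86.6% of ferritin RNA in shCON. ALDH1A3, a retinaldehyde dehydrogenase, was 869 TPM, while ALDH1A1 was 0.47 TPM and ALDH1A2 was listed at 0. GSTP1 held 87.0% of its group, and GSTM1 was listed at 0. SOD1 was 445 TPM and SOD2, the mitochondrial form, was 143 TPM. The aldo-keto reductases of steroid metabolism were low, with AKR1C3 at 0.34 TPM, AKR1C1 at 0.32 TPM and AKR1C2 listed at 0. In their group AKR1B1 at 2.04 TPM held 49.3% and AKR1B10 at 1.44 TPM held 34.8% in shCON. AKR1B10 was the highest member in both hairpin libraries, with 53.2% in shUSP16#1 and 75.6% in shUSP16#2. PTGS2, the inducible cyclo-oxygenase, was 19.3 TPM and PTGS1 was 0.03 TPM. Of 11 metallothionein genes, 3 were expressed (27.3%, against 58.2% of all protein-coding genes) and 8 were listed at 0, MT1E, MT1G and MT1M among them. MT2A was 5839 TPM, MT1X was 241 TPM and MT1F was 12.9 TPM. The metallothionein family was chosen after its values were seen.

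Among cytoskeletal and translation genes, the forms found in most tissues were the highest. ACTB was 3341 TPM and ACTG1 was 2320 TPM, and the muscle actin ACTA2 was 1.82 TPM. TUBB was 1049 TPM, TUBB4B was 760 TPM and TUBB3, the neuronal beta-tubulin, was 145 TPM. TMSB10 was 2.36 times TMSB4X, EEF1A1 held 98.0% of its group, and LMNA, which encodes lamins A and C, was 313 TPM.

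Genes that are normally kept to the testis were nearly all silent. Of 49 cancer-testis genes, 5 were expressed (10.2%, against 58.2% of all protein-coding genes) and 35 were listed at 0, among them MAGEA1, MAGEA3, MAGEA4, SSX1 and SSX2. LAGE3, which many tissues express, was 78.2 TPM, PRAME was 24.6 TPM, IL13RA2 was 2.34 TPM and STK31 was 1.87 TPM. SYCP1, a protein of the meiotic synaptonemal complex, was 34.2 TPM in shCON but 0.47 TPM in shUSP16#1 and 0.79 TPM in shUSP16#2.

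Pathways differed in the share of their genes that was expressed, from 97.2% down to 2.70%, against 58.2% of all protein-coding genes. In the deposited KEGG annotation, 311 terms held at least 15 protein-coding genes. Base excision repair (35 of 36 genes), the Fanconi anemia pathway (54 of 56), the ribosome (134 of 141) and the proteasome (44 of 47) were among the terms with the largest shares of expressed genes. Oxidative phosphorylation had 122 of 143 genes expressed and held 8.98% of all TPM, mitochondrial genome included. Smaller shares were those of steroid hormone biosynthesis with 13 of 59, cytokine-cytokine receptor interaction 95 of 293, olfactory transduction 20 of 439 and asthma 1 of 37. Of 381 olfactory receptor genes 1 was expressed, and all 13 interferon alpha genes were listed at 0.

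Sequence features around the start, which the 1 TPM rule did not use, were compared between levels. A window of 300 bases around the start was available for 15403 protein-coding genes, and a window was called CpG-rich when its GC content was over 50% and its observed over expected CpG ratio over 0.6. CpG-rich windows made up 27.5% of the genes listed at 0, 46.1% of those over 0 and under 1 TPM, 77.8% of those from 1 to under 10 TPM, 84.7% from 10 to under 100 TPM, 86.9% from 100 to under 1000 TPM and 82.1% at 1000 TPM or more. The share rose most around the 1 TPM line and varied little above it. The letters TATAAA were searched on the gene's strand from 40 to 20 bases before the start. They were in 7.97% of windows of genes at 0 and in 5.09% of those over 0 and under 1 TPM, against 3.64% of all windows. The share was 1.45% from 1 to under 10 TPM, 1.36% from 10 to under 100 TPM and 3.21% from 100 to under 1000 TPM. At 1000 TPM or more it was 6.60%, or 7 of 106 windows. These letters were thus commonest at both ends of the range, the upper end resting on few windows. The genes at 1000 TPM or more also had short listed lengths, with a median of 844 bases against 2600 bases for all protein-coding genes. Across expressed genes Spearman's correlation of level with listed length was -0.34 (n = 11586), and over all protein-coding genes it was 0.077 (n = 19904). With the CpG ratio it was 0.12 over expressed genes (n = 9471) and 0.49 over all genes with a window (n = 15403). TPM is divided by length in its making, so length enters both the level and the 1 TPM rule, and these correlations across genes are given as a description.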

How the data were processed

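RNA of PC3 cells with shCON, shUSP16#1 or shUSP16#2 was sequenced as 1 library each. TPM values, given to 2 decimals, were deposited by the authors in a single file of 60930 entries. The submitters' processing notes name hg19, CASAVA and HISAT2, whereas 58516 identifiers matched GENCODE 29, a GRCh38 annotation, so no gene coordinate of the table is given. How reads were counted, and whether strand was used, is not given in the sources used here. Repeat columns (3) were not used. Here, entries that shared a symbol were summed, 307 entries without a symbol were left out, and genes with at least 1 TPM in shCON were called expressed. Protein-coding status and gene order came from GENCODE 29 and promoter windows from RefSeq, GRCh38.p14. Lists were described by counts, to be read against the 58.2% of all protein-coding genes at 1 TPM or more, with no test, since each condition had 1 library. Depth is unknown. The members, lists and roles were chosen with earlier results of these data known. Genes named were the 20 highest protein-coding and 10 highest other genes, members of the 100 lists and roles (the highest, and those at 0), and neighbours of tumour suppressors under 1 TPM; exceptions are marked in the text. Some genes of the lists are not reported here. A log2(TPM + 1) scale was used for feature means and figures. Alternatives were a minimum of 0.5 or 5 TPM, repeated symbols left out or at their highest entry, nuclear protein-coding genes rescaled, the other libraries and a pseudocount of 0.1 TPM. Counting and share functions were tested on simulated data. Python 3.11.15, pandas 2.3.3 and scipy 1.17.1 were used.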

Additional observations from a re-analysis of the deposited data

How the results depend on the processing

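The number of expressed genes, the number of protein-coding genes at 1 TPM, the share of the 10 highest genes, the number of listed genes expressed and the median isoform share stayed within 1.5 times their value under each alternative run. The expressed genes numbered 15093 at a minimum of 0.5 TPM and 9651 at 5 TPM. The mean log2(TPM + 1) of genes with a CpG-rich window was 2.26 higher than that of other genes, and the difference was 3.72 with a pseudocount of 0.1 TPM and 0.519 among expressed genes alone. For windows with TATAAA the difference was -1.25, it was -2.28 with the pseudocount of 0.1 TPM, and it turned to 0.768 among expressed genes alone, where 157 genes with the letters averaged 5.04 and 9314 without averaged 4.27. Of 39 list counts, 10 moved by over 1.5 times at a minimum of 5 TPM and 2 at 0.5 TPM. Of 58 isoform shares, 1 moved that far in shUSP16#1 and 3 in shUSP16#2. No paired analysis was possible because the control and the hairpins have a single library apiece. Without a recorded depth, genes near 1 TPM cannot be placed firmly on one side of it.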

Other observations

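Entries without a symbol, which named transcripts assembled from the reads, were outside the genes described. There were 307, of which 222 had at least 1 TPM in shCON. Together they held 9705 TPM in shCON (0.971% of all TPM), 5011 TPM in shUSP16#1 and 9200 TPM in shUSP16#2. The 3 highest of them in shCON held 7280 TPM there, 2548 TPM in shUSP16#1 and 6918 TPM in shUSP16#2, so they were lowest in shUSP16#1.

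The share of protein-coding genes at 1 TPM or more differed among chromosomes in shCON. It was 65.2% on chromosome 16 and 64.6% on chromosome 14, the largest values, and it was 42.8% on chromosome X, 51.9% on chromosome 4 and 52.6% on chromosome 11. Chromosomes 19 and 1 held 8.92% and 8.88% of all TPM, the largest shares.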
